A study of Mus musculus with 5 samples.

Results

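The GIMAP genes (GTPases of immunity-associated proteins) are a compact family of lymphocyte genes on mouse chromosome 6. The 8 members described here, Gimap1 and Gimap3 to Gimap9, were taken by their symbols from a table of 48440 genes. All 8 passed the filter on low counts, among 14460 genes tested. The libraries were RNA-seq of CD4+CD25+ regulatory T cells (Tregs), isolated fresh from spleen by magnetic beads, from C57B/6 mice kept on a high-fat diet and given no treatment. In 3 libraries the cells came from mice labelled CD4-KLF10-KO (KO), a deletion of the Krüppel-like transcription factor KLF10 in CD4+ T cells, and in 2 from wild-type (WT) mice. Background, diet, spleen and sort were shared by both groups. The labels give neither the age or sex of the mice nor the construct behind the deletion, and they do not say that replicates are separate animals. P-values therefore measure the spread between these libraries, which may be technical.

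GIMAP proteins bind GTP through a domain related to that of septins and dynamins, and most of them sit on internal membranes of lymphocytes. In mice, T cells that lack Gimap5 die early and the animals become lymphopenic, and loss of Gimap1 depletes mature T and B cells from the periphery. Other members have been tied to T cell death, to autophagy and to the BCL2 family of survival proteins. Their transcripts are typical of resting T cells, B cells and natural killer cells rather than of a single lineage.

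All 8 genes are protein-coding and lie within 124 kb of GRCm38, at chr6:48647234-48770851. From the low to the high coordinate the order is Gimap8, Gimap9, Gimap4, Gimap6, Gimap7, Gimap1, Gimap5 and Gimap3. Gimap6 and Gimap3 lie on the minus strand and the others on the plus strand. Upstream sequences of 4 members are printed because these genes bracket the data described next: Gimap3 had the highest level, Gimap5, its close relative, had the lowest, and Gimap6 and Gimap7 had the lowest and the highest KO-to-WT ratio. Each run holds the 250 bases before the RefSeq start of transcription in GRCm38.p6, 5′ to 3′ on the strand of the gene. Capitals mark matches, on either strand, to 3 words: CACCC, a core word bound by Krüppel-like factors; GGAAGT, a word bound by ETS factors; and TGTGGT, a word bound by RUNX factors. The windows are chr6:48770852-48771101 on the minus strand (Gimap3), chr6:48745947-48746196 on the plus strand (Gimap5), chr6:48708245-48708494 on the minus strand (Gimap6) and chr6:48718371-48718620 on the plus strand (Gimap7).
Gimap3: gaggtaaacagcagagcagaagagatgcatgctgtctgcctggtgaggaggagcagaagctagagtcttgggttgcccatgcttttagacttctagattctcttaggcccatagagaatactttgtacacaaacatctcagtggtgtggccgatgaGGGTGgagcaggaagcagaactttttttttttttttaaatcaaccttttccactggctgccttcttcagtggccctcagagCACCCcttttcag
Gimap5: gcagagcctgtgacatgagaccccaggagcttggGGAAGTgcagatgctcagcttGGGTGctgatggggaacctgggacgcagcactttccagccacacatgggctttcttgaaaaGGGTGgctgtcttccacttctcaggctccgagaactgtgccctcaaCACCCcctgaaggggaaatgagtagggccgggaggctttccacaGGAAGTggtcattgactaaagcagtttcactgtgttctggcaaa
Gimap6: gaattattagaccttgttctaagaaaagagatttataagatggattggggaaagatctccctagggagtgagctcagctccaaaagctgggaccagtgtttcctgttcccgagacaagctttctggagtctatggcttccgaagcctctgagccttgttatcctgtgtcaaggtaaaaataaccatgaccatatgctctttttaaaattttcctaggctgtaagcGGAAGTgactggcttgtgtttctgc
Gimap7: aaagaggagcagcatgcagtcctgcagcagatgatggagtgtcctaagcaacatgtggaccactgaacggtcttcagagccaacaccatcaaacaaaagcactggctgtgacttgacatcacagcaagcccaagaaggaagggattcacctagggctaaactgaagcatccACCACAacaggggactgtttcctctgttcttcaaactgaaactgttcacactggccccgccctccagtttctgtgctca

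RefSeq promoters were matched for all 8 members, in 9 windows because Gimap8 has a pair of starts. CACCC was present in 6 of these windows, belonging to 5 genes, against 52.0% of 32851 mouse promoters of the same length. Gimap5 held it 3 times and Gimap3 held it 2 times, while Gimap6, Gimap7 and Gimap1 held none in this window. GGAAGT occurred in the windows of Gimap5 and Gimap6, against 19.7% of all promoters, and TGTGGT in those of Gimap4, Gimap7 and Gimap1, against 14.0%. The 3 words do not overlap one another in the 4 runs printed. All 9 windows were poorer in CpG than the median promoter: their ratio of observed to predicted CpG lay between 0.0723 (Gimap3) and 0.342 (Gimap9), against a median of 0.373. A match of letters is a description of these windows and does not show that a factor binds there.

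The targeted gene was read first. Klf10 had 16, 12.6 and 8.87 TMM-scaled CPM, counts scaled to library size, in KO replicates 1 to 3, against 22.0 and 22.6 CPM in WT. All KO libraries were below both WT libraries, and the transcript was still counted in each of them. The log2 difference (KO over WT) was −0.84 ± 0.22 (SE), with an adjusted p of 0.136 in edgeR's quasi-likelihood test and of 0.0195 in DESeq2. The deposited values are per gene and cannot tell a deleted exon from an intact one. Total counts per library ran from 25622614 to 30521797. The library codes begin with B in KO and with A in WT, so whatever the letter marks cannot be told apart from genotype.

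The GIMAP genes were among the more abundant transcripts of the preparations. Levels per length, which can be compared between genes, were read from the deposited TPM. These are shares of all transcripts, of which haemoglobin held 16.7% to 24.6% in KO and 4.74% to 6.93% in WT. The KO and WT levels of each gene are therefore compared in TMM-scaled CPM further below. Gimap3 (ENSMUSG00000039264 at chr6:48764464-48770851) led in every library, with 625.1, 741.9 and 778.1 TPM in KO replicates 1, 2 and 3, against 1005.8 and 812.1 TPM in WT replicates 1 and 2. Its protein is a close relative of GIMAP5 and has been tied to BCL2 proteins in T cells. Gimap4 (ENSMUSG00000054435 at chr6:48684549-48692060), whose protein has been linked to the execution of T cell death, came next with 467.4 ± 65.8 TPM in KO and 585.5 ± 57.2 TPM in WT (SD, n = 3 and n = 2, as for all means here). Gimap6 (ENSMUSG00000047867 at chr6:48701582-48708225), whose product binds the autophagy protein GABARAPL2, averaged 301.1 ± 36.7 TPM in KO and 413.0 ± 54.7 TPM in WT.

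Gimap1 (ENSMUSG00000090019 at chr6:48739054-48743795), which mature lymphocytes of mice require, followed with 259.4 ± 31.6 TPM in KO and 330.1 ± 23.7 TPM in WT. Gimap8 (ENSMUSG00000064262 at chr6:48647234-48660875), the member whose protein carries several GTPase domains in a row, had 159.5 ± 17.3 TPM in KO and 202.7 ± 37.2 TPM in WT. Gimap7 (ENSMUSG00000043931 at chr6:48718621-48724636), whose protein hydrolyses GTP as a dimer, and Gimap9 (ENSMUSG00000051124 at chr6:48676129-48679114) lay close together, at 136.3 ± 17.6 and 130.3 ± 17.4 TPM in KO, against 153.6 ± 34.6 and 152.7 ± 13.7 TPM in WT. These 2 neighbours in the order did not differ beyond their spread: Gimap7 was above Gimap9 in the 3 KO libraries and in WT replicate 1, and below it in WT replicate 2. Gimap5 (ENSMUSG00000043505 at chr6:48746197-48754210), a protein of lysosomal membranes, was last with 92 ± 14.7 TPM in KO and 110.6 ± 10.4 TPM in WT. The ranks of the other 6 members were the same in all 5 libraries. Set against all genes tested, Gimap3 stood above 99.0% of them by mean TPM and Gimap5 above 90.9%.

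**Figure D1:**
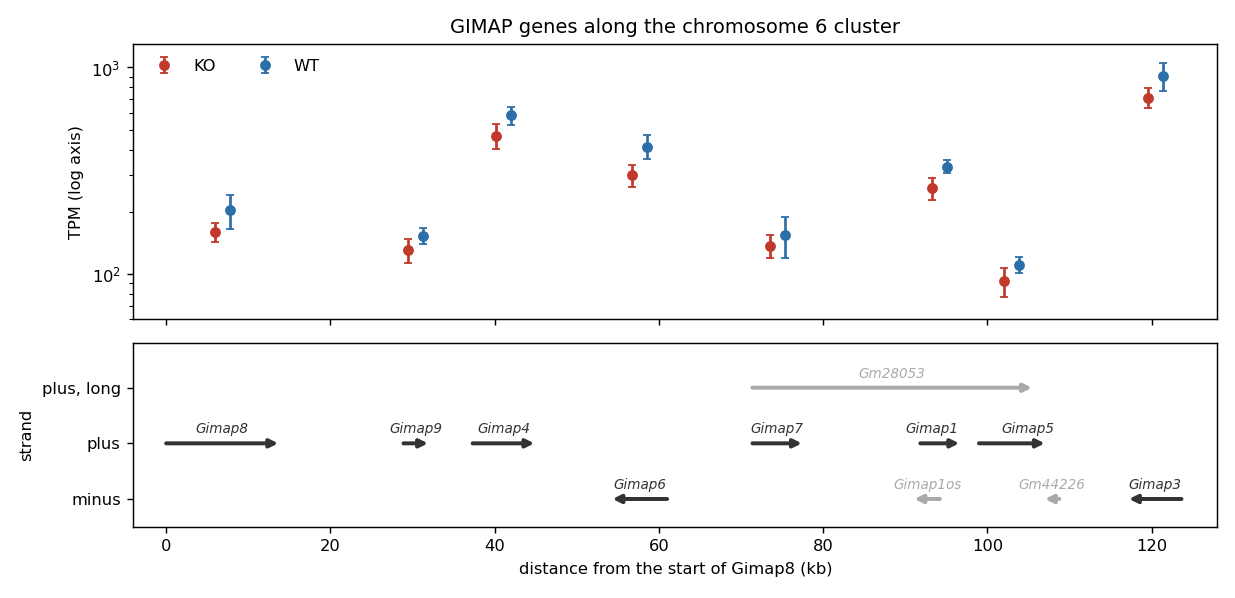
Upper panel: mean TPM (y axis, log scale) of each GIMAP gene in 3 KO and 2 WT libraries, with bars of 1 SD; lower panel: the genes as arrows in their direction of transcription along the cluster (x axis, kb from the start of Gimap8), with other transcripts of the cluster in grey. Gimap3 at the far end has the highest mean in both groups and Gimap5 next to it the lowest.

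The division of the summed GIMAP level among the members varied little. Gimap3 made up 31.7% ± 0.667 of the summed TPM in KO and 31.8% ± 0.699 in WT, and Gimap4 made up 20.6% ± 0.426 in KO and 20.5% ± 0.646 in WT. Gimap6 held 13.3%, 13.5% and 13.1% in KO replicates 1 to 3, against 14.5% and 14.4% in WT replicates 1 and 2. Every KO share of Gimap6 was below both WT shares. Gimap7 held 5.99%, 6.23% and 5.86% in KO, against 5.71% and 4.97% in WT, so every KO share was above both WT shares. For the other 6 members the groups overlapped. For scale, 35.0% of all genes tested had groups that did not overlap in CPM, in either direction.

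**Figure D2:**
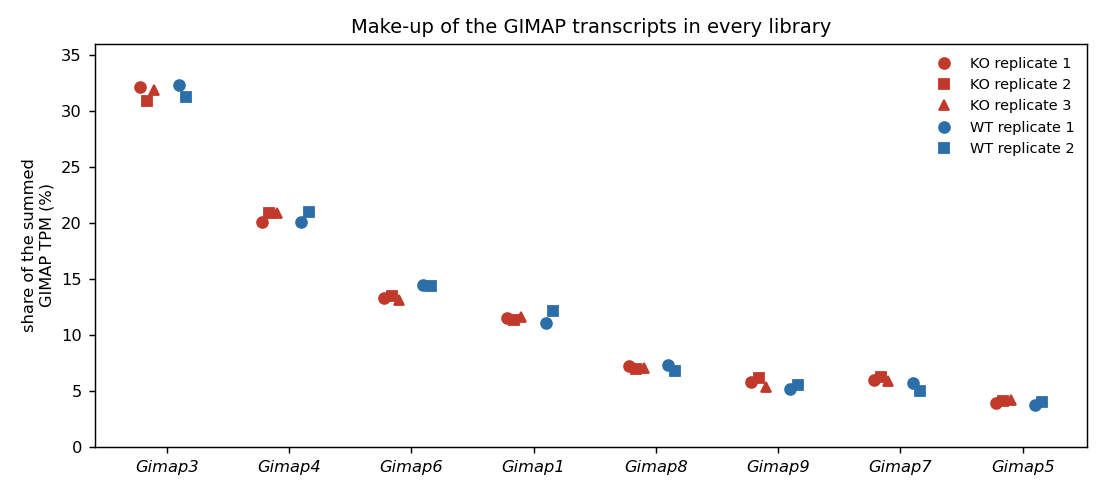
Share of the summed GIMAP TPM (y axis, percent) held by each member, with a point for each KO and WT library. The order of the members is nearly the same in all libraries, and in Gimap6 all KO shares (13.1% to 13.5%) lie below both WT shares (14.4% and 14.5%). Gimap7 shows the reverse, and for the other members the groups overlap. In CPM, 35.0% of all genes tested had groups that did not overlap, in either direction.

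In the comparison of KO with WT Tregs 0 of the 8 GIMAP genes were called, by edgeR's test adjusted over all genes (false discovery rate of 0.05), by DESeq2 and under each other setting tried. Across all genes tested, edgeR called 0.284% (0.0553% lower in KO) and DESeq2 7.07%. At an unadjusted p under 0.05, edgeR and DESeq2 each counted 1 member, Gimap6, against 16.4% of all genes in edgeR (5.62% lower in KO) and 14.9% in DESeq2. The fitted log2 difference was below 0 in 7 of 8 members, where 53.3% of all genes were below 0. The median over the members was −0.16, beside −0.01 over all genes tested, whose middle part lay between −0.12 and 0.16 (quartiles). Without WT replicate 1 the median of the members was −0.03. In bulk RNA, fewer cells of a type and less RNA per cell cannot be told apart.

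Gimap6 had the lowest KO-to-WT ratio of the family. It had 433.0, 487.0 and 480.8 CPM in KO replicates 1 to 3, against 610.4 and 523.1 CPM in WT replicates 1 and 2. All 3 KO values were below both WT values, with WT replicate 1 well above the rest. The mean was 466.9 ± 29.6 CPM in KO and 566.7 ± 61.8 CPM in WT. The log2 difference was −0.28 ± 0.09 (SE; 95% interval −0.50 to −0.06), a fold of 0.824 (0.707 to 0.96). Without WT replicate 1 the log2 difference was −0.16, and without WT replicate 2 it was −0.39. Its unadjusted p was 0.0207 and its adjusted p 0.2 in edgeR, and the DESeq2 adjusted p was 0.108.

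Gimap1 was the other member whose groups did not overlap. It had 223.7, 242.7 and 255.2 CPM in KO, against 280.2 and 261.8 CPM in WT, so KO replicate 3 lay just under WT replicate 2. The log2 difference was −0.17 ± 0.08 (interval −0.36 to 0.01, edgeR adjusted p 0.337). In all, 2 of 8 members had every KO library below every WT library, and 17.4% of all genes tested did. In either direction, 35.0% of all genes tested had groups that did not overlap.

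Gimap3 and Gimap5, which share a stretch of near-identical sequence, had overlapping groups. Gimap3 had 770.7, 819.3 and 863.2 CPM in KO, against 1002.0 and 836.6 CPM in WT, with KO replicate 3 above WT replicate 2 (log2 −0.17 ± 0.1, adjusted p 0.449 in edgeR). Without WT replicate 1 its log2 difference was −0.03, and without WT replicate 2 it was −0.29. Gimap5, whose loss leaves mice and rats short of T cells, had 84.9, 98.3 and 104.6 CPM in KO, against 107.3 and 97.1 CPM in WT. Its KO replicates 2 and 3 were both above WT replicate 2, and its log2 difference was −0.09 ± 0.1 (interval −0.34 to 0.15, adjusted p 0.72 in edgeR). It was −0.0048 without KO replicate 1, −0.02 without WT replicate 1, and −0.16 and −0.15 without WT replicate 2 and KO replicate 3. Transcripts of the pair align over 720 bases with 97.9% identity, out of 2145 bases in Gimap3 and 1953 in Gimap5. Of all 50-base windows, 9.06% of those in Gimap3 and 9.98% of those in Gimap5 occur in the other gene. How reads with several matches were counted is not given in the sources used here, so the split between these 2 genes is uncertain to that extent.

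The remaining 4 members also had overlapping groups. Gimap4 had 344.1, 395.2 and 402.2 CPM in KO, against 444.5 and 400.3 CPM in WT (log2 −0.15 ± 0.09, edgeR adjusted p 0.473), and its log2 difference was −0.07 without WT replicate 1, −0.08 without KO replicate 1 and −0.23 without WT replicate 2. Gimap8 had 247.5, 263.7 and 274.6 CPM in KO, against 327.6 and 260.9 CPM in WT (log2 −0.17 ± 0.11, edgeR adjusted p 0.497). In Gimap4 KO replicate 3 was above WT replicate 2, and in Gimap8 KO replicates 2 and 3 were. Gimap9 had 88.5, 103.8 and 92.3 CPM in KO, against 103.1 and 93.9 CPM in WT, with KO replicate 2 the highest of all libraries (log2 −0.05 ± 0.09, edgeR adjusted p 0.816). Gimap7 had 75.5, 87.0 and 83.4 CPM in KO, against 93.3 and 70.0 CPM in WT. Its WT libraries enclosed all KO libraries, and the interval of its log2 difference ran from −0.31 to 0.32 around 0.0044.

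Read by the bounds of these intervals, the data leave room for modest differences in either direction for most members. The lowest bound over the 8 members was −0.50 (Gimap6) and the highest was 0.32 (Gimap7). An adjusted p above the threshold does not show that KO and WT levels are equal.

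**Figure D3:**
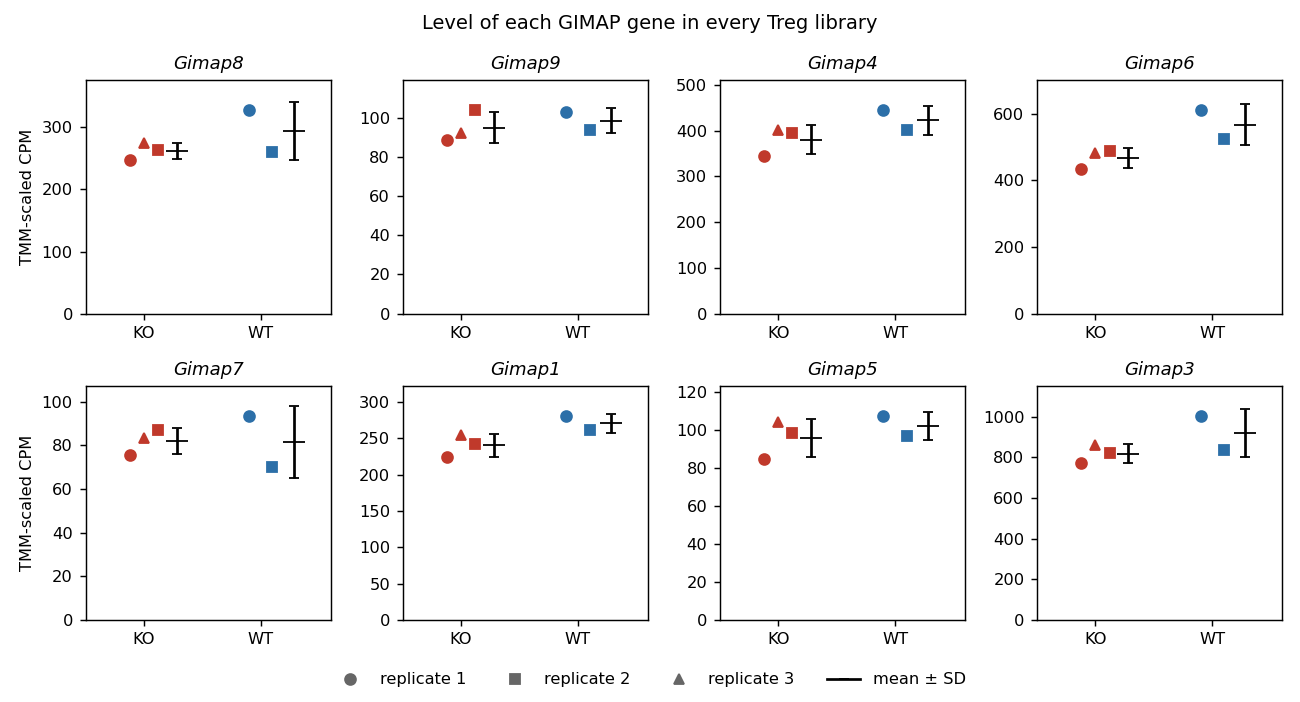
TMM-scaled CPM (y axis, from 0) of each GIMAP gene in every library, in a panel for each gene; points are libraries, shaped by replicate, and bars are mean ± SD. In Gimap1 and Gimap6 all KO points lie below both WT points, and in the other 6 panels the groups overlap.

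Much of the spread among the members was shared. WT replicate 1 was above WT replicate 2 in 8 of 8 members, by 7.02% in Gimap1 up to 33.3% in Gimap7, whereas 51.5% of all genes tested were higher in WT replicate 1. It was the highest of all 5 libraries in 7 of 8 members (26.0% of all genes), the exception being Gimap9. KO replicate 1 was the lowest of the KO libraries in 8 of 8 members (35.8% of all genes). It was the lowest of all 5 in 7 of 8 (23.1% of all genes), the exception being Gimap7. The WT pattern was not particular to the family. WT replicate 1 was above WT replicate 2 in 16 of 16 pan-T cell genes, a list described below, and highest of all libraries in 16 of 16. It was above WT replicate 2 in 7 of 8 Treg genes, and in 0 of 10 B cell markers. KO replicate 1 was the lowest of all libraries in 8 of the 16 pan-T cell genes and 2 of the 8 Treg genes. Averaged over the members, centred log2 CPM was −0.17 in KO replicate 1 and 0.19 in WT replicate 1, with the other 3 libraries between −0.03 and 0.01. The coefficient of variation within a group had a median over the members of 6.87% in KO and 9.15% in WT, beside 4.59% in KO and 4.84% in WT over 2766 genes at least as abundant.

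The genes whose profile over the 5 libraries was most like the mean profile of the members were Mov10, Mndal, Ppcdc, Fyn and Thumpd3. The measure was the root mean square difference of centred log2 CPM among 7076 genes at or above the median level, and it was 0.013 for Mov10 and 0.019 for Thumpd3. Fyn, a SRC family kinase of T cell receptor signalling, had 294.3, 319.4 and 326.3 CPM in KO, against 364.6 and 320.3 CPM in WT. KO replicate 1 was its lowest library and WT replicate 1 its highest, as in most GIMAP genes, which the choice by likeness favours. The members themselves lay at 0.029 (Gimap4) to 0.098 (Gimap7) from their own mean. Among the 7076 genes these distances would rank 19 (Gimap4) and 1566 (Gimap7), so many other genes lay closer to that mean than Gimap7. These 5 points share libraries, depth and scaling, so the likeness is a description only.

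Summed over the family, the level per length was lower in KO. The sum was 1943.5, 2401.0 and 2438.7 TPM in KO replicates 1 to 3, against 3117.8 and 2596.7 TPM in WT, with no overlap. The difference was −0.34 on the log2 scale, and −0.21 without WT replicate 1. Sums over the members are given without a test, because the members were chosen with results of these data known. TPM is a share of all transcripts, and haemoglobin transcripts held 24.6%, 16.8% and 16.7% of TPM in KO, against 6.93% and 4.74% in WT. The part of haemoglobin in the TPM difference was not tested. In TMM-scaled CPM the sum was 2267.8, 2497.0 and 2556.3 in KO, against 2968.3 and 2543.7 in WT. There KO replicate 3 was above WT replicate 2, and the log2 difference was −0.17.

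A list of 16 pan-T cell genes, among them the T cell receptor and CD3 chains and the kinases Lck and Zap70, was also low in KO. Its sum was 3761.7, 3943.9 and 3859.0 CPM in KO, against 4953.9 and 4229.4 CPM in WT, with no overlap. Of the 16 genes edgeR called 0 (10 had an unadjusted p under 0.05, all lower), DESeq2 called 6 lower, and 11 had every KO library below every WT library. Over all genes tested, 5.62% were lower at an unadjusted p under 0.05, DESeq2 called 7.07% in either direction, and 17.4% had every KO library below. The median log2 difference of the list was −0.30. Cd6 (−0.34, adjusted p 0.0843), Cd2 (−0.25, 0.104) and Lat (−0.32, 0.109) had the smallest p of the list in edgeR.

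Relative to these T cell genes, no KO library had a GIMAP level below the range of the WT libraries. The ratio of the summed GIMAP TPM to the summed pan-T cell TPM was 0.386, 0.408 and 0.427 in KO, against 0.382 and 0.387 in WT (log2 0.08). KO replicate 1 lay between the WT libraries, and KO replicates 2 and 3 lay above both. In CPM the ratio was 0.603, 0.633 and 0.662 in KO, against 0.599 and 0.601 in WT, with no overlap. Without the T cell receptor constant genes the TPM ratio was 0.715, 0.751 and 0.769 in KO, against 0.704 and 0.703 in WT, again with no overlap. When the libraries were scaled so that the pan-T cell list was level, the median over the members was 0.10, and all members but Gimap6 (−0.03) were above 0. That scaling raised the median of all genes by 0.25, to 0.23, and 89.4% of all genes were above 0. Relative to the median of all genes, the members stood at −0.15 under TMM and at −0.14 under pan-T cell scaling. No member was called under it, where 7.61% of all genes were, and 0 had an unadjusted p under 0.05, against 24.8% of all genes. Gimap7 had the smallest p of the members there (log2 0.27, interval −0.0035 to 0.54, adjusted p 0.205 in edgeR).

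**Figure D4:**
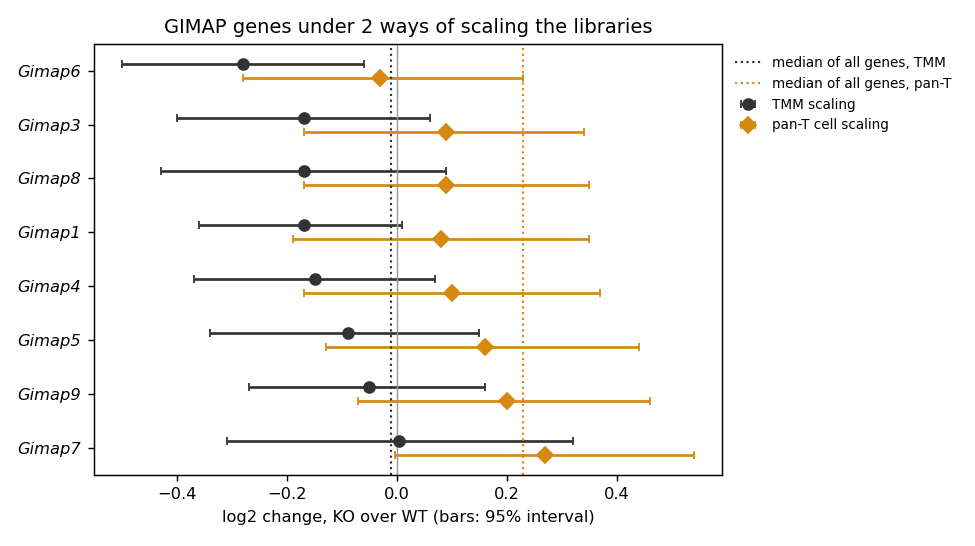
Log2 difference of KO over WT (x axis, with 95% intervals) for each GIMAP gene under TMM scaling (circles) and under scaling to the pan-T cell genes (diamonds); dotted lines are the medians of all genes tested. Under TMM 7 of 8 points are below 0, and under pan-T cell scaling 7 of 8 are above 0 and most lie below the median of all genes.

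Markers of the labelled cell type were present in every library. Foxp3, the defining factor of Tregs, was at 474.0 to 488.7 CPM in KO and 476.2 to 577.0 CPM in WT, and Cd4 at 339.3 to 377.8 CPM in KO and 372.2 to 422.3 CPM in WT. Of 8 Treg genes edgeR called 0 (2 had an unadjusted p under 0.05, both lower, and DESeq2 called 2 lower), and their median was −0.13. Among all genes tested, edgeR counted 5.62% lower at that unadjusted p, and DESeq2 called 7.07% in either direction. Lrrc32, which displays latent TGF-β on Tregs, and Il2ra, the CD25 used for the sort, had log2 differences of −0.57 and −0.42 (adjusted p 0.0745 and 0.104 in edgeR). Without WT replicate 1 these were −0.39 and −0.26.

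B cells, which also express GIMAP genes, were represented in all libraries. The 10 B cell markers summed to 3324.1, 3132.3 and 3097.5 CPM in KO, against 2634.1 and 3759.5 CPM in WT, so the KO values lay between the WT values. Cd79a alone was at 627.8 to 694.4 CPM in KO and 490.5 to 772.8 CPM in WT. WT replicate 1, the highest library for most GIMAP genes, was below WT replicate 2 in 10 of 10 B cell markers. Of these edgeR called 0 (1 had an unadjusted p under 0.05, lower) and DESeq2 called 0. Transcripts that mark CD8 T cells or natural killer cells, which express the family too, were low, with a sum of 69.1 to 88.0 CPM in KO and 81.9 to 97.9 CPM in WT, and none of the 8 was called by edgeR (2 had an unadjusted p under 0.05, both lower, and DESeq2 called 1). Of the 8 endothelial markers, Tek, Emcn and Tie1 had too few counts to be tested, and the sum was 145.7 to 159.6 CPM in KO and 155.5 to 166.5 CPM in WT. Most of it was Pecam1, which other blood cells express too, at 122.6 to 133.2 CPM in KO and 143.7 to 153.6 CPM in WT. Of the 5 tested, 4 were above 0 with a list median of 0.59, and edgeR called 0 (1 higher and 1 lower at an unadjusted p under 0.05). Among those above 0, Cdh5, Kdr and Egfl7 had only 7 to 37 counts per library, so the list median rests on few counts. Pecam1 was below 0 (log2 −0.22). DESeq2 called 1 higher, the sinusoidal receptor Stab2 (log2 1.02, adjusted p 0.0598 in edgeR and 1.02e-07 in DESeq2). For all genes tested, the shares at an unadjusted p under 0.05 in edgeR were 5.62% lower and 10.7% higher. DESeq2 called 7.07% of all genes in either direction.

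Erythroid and myeloid transcripts were higher in every KO library than in either WT library. Erythroid markers summed to 91238.9, 55435.4 and 55481.2 CPM in KO, against 20510.6 and 14573.9 CPM in WT. All 9 erythroid markers tested had every KO library above every WT library, with a median log2 difference of 2.0. DESeq2 called all 9 higher and edgeR called 0 (9 had an unadjusted p under 0.05). Across all genes tested, 17.6% had every KO library above every WT library. At an unadjusted p under 0.05 in edgeR 10.7% were higher, and DESeq2 called 7.07% in either direction. Myeloid markers summed to 1087.7, 1370.1 and 1188.2 CPM in KO, against 637.4 and 463.6 CPM in WT. All 10 of these genes had every KO library above every WT library and an unadjusted p under 0.05 in edgeR. DESeq2 called all 10 higher. By edgeR 3 were called higher, where 0.228% of all genes tested were. They were the macrophage genes Cd68 (log2 1.08, adjusted p 0.0382), Adgre1 (1.13, 0.0445) and C1qc (1.30, 0.0492). Each of these calls was lost with a replicate block, without WT replicate 2, and without KO replicate 2 or 3 (edgeR adjusted p 0.0714 to 0.157). Without WT replicate 1 Cd68 (0.071) and Adgre1 (0.0799) lost theirs too. C1qc lost its call with DESeq2 size factors (0.051), the stricter filter (0.056) and robust empirical Bayes (0.0573), all adjusted p in edgeR. KO replicate 1, the lowest library for 7 of 8 GIMAP genes, had the highest erythroid sum. In the WT pair the order was the reverse: WT replicate 1, the highest library for most GIMAP genes, had the higher erythroid sum. The part of these transcripts in the GIMAP values was not tested.

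**Figure D5:**
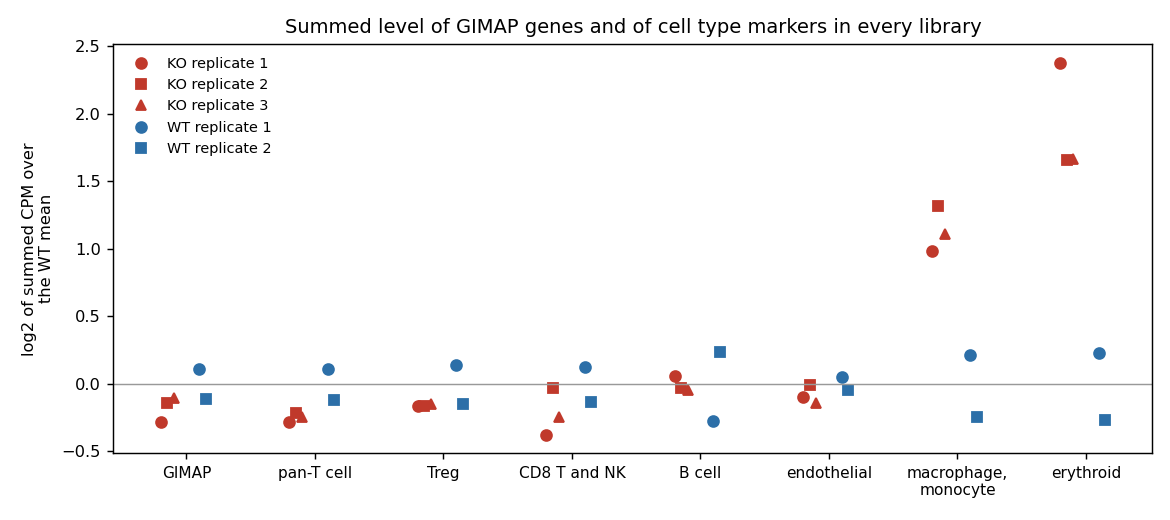
Summed CPM of the GIMAP genes and of each marker list in every library, as log2 of its ratio to the WT mean (y axis). The GIMAP points of KO and WT overlap, while all KO points of the macrophage and erythroid lists lie above all WT points.

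Genes of families that have been tied to GIMAP proteins gave a mixed picture. Of 16 genes of the BCL2 family, the ATG8 family of autophagy proteins and GSK3 beta, edgeR called 0 (4 higher and 1 lower at an unadjusted p under 0.05), and DESeq2 called 3 higher. These 3 were also called under pan-T cell scaling, where 7.61% of all genes were. Under TMM, 10.7% of all genes were higher and 5.62% lower at an unadjusted p under 0.05 in edgeR. DESeq2 called 7.07% of all genes in either direction. Bcl2l1, which encodes the survival protein BCL-XL, had 238.7, 140.7 and 139.1 CPM in KO, against 79.3 and 68.4 CPM in WT (log2 1.23 ± 0.26, adjusted p 0.0851 in edgeR and 0.0156 in DESeq2). Gabarapl2, the ATG8 protein that GIMAP6 binds, had 105.6, 85.9 and 86.3 CPM in KO, against 72.6 and 68.6 CPM in WT (log2 0.39 ± 0.11, adjusted p 0.142 in edgeR and 0.0402 in DESeq2). Gabarapl1 had 27.7, 24.4 and 24.0 CPM in KO, against 17.3 and 18.4 CPM in WT (log2 0.50 ± 0.10, adjusted p 0.0783 in edgeR and 0.00303 in DESeq2). All 3 were high in KO, and highest in KO replicate 1, the library with the highest erythroid sum. BCL-XL is also known as a survival protein of erythroid precursors. The part of erythroid RNA in these values was not tested. Bcl2, named after its values were seen, went the other way, at 141.8 to 183.7 CPM in KO and 197.2 to 228.7 CPM in WT. Of the 16 genes, 3 had every KO library below every WT library and 4 had every KO library above. The shares of all genes tested were 17.4% and 17.6%.

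Genes of T cell quiescence, IL-7 dependent survival and recirculation are known from resting T cells. Of 18 such genes 15 were below 0, with a median of −0.13, and 8 had every KO library below every WT library, against 17.4% of all genes tested. The reverse held for 1 gene, Il7r, the receptor chain for IL-7, named after its values were seen, at 237.7 to 246.8 CPM in KO and 173.9 to 207.9 CPM in WT. Of all genes tested, 17.6% had every KO library above every WT library. At an unadjusted p under 0.05, edgeR counted 7 lower and 1 higher, against 5.62% and 10.7% of all genes tested. By edgeR 1 was called, Themis, a signalling protein of T cell selection, which fell to 17.1, 17.5 and 16.2 CPM in KO, against 30.4 and 26.8 CPM in WT (log2 −0.76 ± 0.09, adjusted p 0.0492). This call was lost with DESeq2 size factors, with the stricter filter, with a replicate block and without WT replicate 1, WT replicate 2, KO replicate 2 or KO replicate 3, where its adjusted p in edgeR lay between 0.0515 and 0.141. S1pr1, the receptor for exit from lymphoid organs, was at −0.37 (adjusted p 0.0635 in edgeR). DESeq2 called 5 of the 18 lower and 1 higher, against 7.07% of all genes tested in either direction.

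The surroundings on chromosome 6 held 27 tested genes within 1 Mb of the cluster, and edgeR called 0 of them (0 higher and 2 lower at an unadjusted p under 0.05, DESeq2 called 0). Their median log2 difference was −0.06, and 6 had every KO library below every WT library. Across all genes tested the shares were 5.62% lower at an unadjusted p under 0.05 and 17.4% with every KO library below. The nearest tested gene on the low side, AI854703, lay 13.5 kb away with a log2 difference of −0.44 (adjusted p 0.5 in edgeR), and the nearest on the high side, Tmem176b, lay 63.0 kb away with 0.21 (0.461). AI854703 had 3.87, 2.96 and 2.16 CPM in KO, against 4.58 and 3.53 CPM in WT, and Tmem176b had 38.9, 46.6 and 50.2 CPM in KO, against 36.9 and 41.6 CPM in WT. In both the groups overlapped.

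Within the cluster 3 further transcripts were tested, with log2 differences of −0.17 (Gm28053), −0.15 (Gimap1os) and −0.09 (Gm44226). Gm28053 shares its strand with Gimap1, Gimap5 and Gimap7. It spans Gimap1 and Gimap7 whole and 6448 of the 8014 bases of Gimap5. Its 141 to 204 counts amount to at most 8.44% of those of any of them. How reads of the shared stretches were assigned is not given, so its counts do not bound the reads shared. Gimap1os runs opposite to Gimap1 over 2391 bases and had 507 to 805 counts, at most 9.49% of those of Gimap1. The strand setting of the counting is not given in the sources used here, so reads of this overlap cannot be told apart.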

How the data were processed

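Per the labels' protocols, RNA came from an RNeasy kit and ribosomal RNA was removed before library preparation. The submitters' processing notes name Trimmomatic 0.36, STAR 2.5.2b and the build GRCm38. Not given in the sources used here are the counter, its annotation, its strand setting and how it treated reads with more than a single match. The authors deposited whole-number counts per gene, RPKM values (counts per gene length and depth), TPM values and a scaled CPM column, treated as a score of unknown scaling and not used. No value reported here was taken from RPKM. TPM, as deposited, served for levels between genes, and all model tests start from the counts. No column was left without a sample.

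Genes kept by filterByExpr (14460) went through TMM scaling and the quasi-likelihood test of edgeR 4.0.16 (glmQLFit and glmQLFTest, genotype only) in R 4.3.3, with Benjamini-Hochberg adjustment over all of them. The SE is the size of the log2 difference divided by the square root of F. The biological coefficient of variation was 13.1%, which exceeds counting error for every GIMAP gene (1824 to 30377 counts). DESeq2 1.42.0, other scalings and filters, a block, and leaving out libraries were alternatives. Exact permutation tests of the sums (scipy 1.17.1) cannot go below p = 0.2 here and are not reported. Libraries of a group differed by more than sampling noise, so each was counted. The code was tested on simulated counts. Coordinates are those of the deposited table and match GENCODE M21; promoters are RefSeq's, and transcripts were aligned with blastn 2.17.0. The members and the lists were chosen with earlier results of these data known. The rule for named genes takes all members, Klf10, the called genes or the 3 with the smallest p of each list, the nearest tested neighbours and the 5 most alike genes. Other list genes (Foxp3, Cd4, Cd79a) serve as marker checks, and Bcl2 and Il7r were named after their values were seen. Some list genes that the rule takes are not reported by name here.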

Additional observations from a re-analysis of the deposited data

How the results depend on the processing

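The number of GIMAP genes called was 0 in the fit reported and in all 14 alternatives, leave-one-out fits included, and the lowest adjusted p of any member was 0.108 (Gimap6, DESeq2). Over all genes tested the count of calls moved widely from the 41 reported: it was 1100 with pan-T cell scaling, 589 with no filter, 23 with the stricter filter (mean of 50 counts), 118 without haemoglobin, immunoglobulin, T cell receptor, mitochondrial and ribosomal RNA genes, 1022 with DESeq2 and 579 at a false discovery rate of 0.10. Leaving out each library in turn gave 1 to 334 calls. The median log2 difference of the members (−0.16 as reported) was 0.10 with pan-T cell scaling and lay between −0.22 and −0.03 without a library. The cause was not tested.

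Pan-T cell scaling turned the sign of Gimap1 (0.08), Gimap3 (0.09), Gimap4 (0.10), Gimap5 (0.16), Gimap8 (0.09), Gimap9 (0.20), Mov10 (0.13), Mndal (0.13), Ppcdc (0.12), Fyn (0.12), Thumpd3 (0.11) and Foxp3 (0.12), by construction, since it raises all genes together. Leave-one-out values crossed 0 for Gimap7 (−0.19 to 0.23), Gimap8 (−0.32 to 0.0053), Gimap9 (−0.12 to 0.01), Mov10 (−0.25 to 0.0078), Mndal (−0.24 to 0.01) and Foxp3 (−0.27 to 0.01). For Gimap7 the library left out was WT replicate 2 or KO replicate 2 or 3, and for the others it was WT replicate 1. Gimap6 stayed below 0, from −0.39 without WT replicate 2 to −0.16 without WT replicate 1. The summed GIMAP TPM (log2 −0.34) lay between −0.47 and −0.21 without a library. With 1 WT library left, its spread is assumed to be that of the KO group.

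The labels do not say whether replicate numbers pair the libraries. Deviations from the group means correlated at −0.000136 and 0.0625 between same-numbered libraries. With 2 WT libraries, the WT deviations mirror each other, so these values cannot decide whether the libraries are paired. A fit with the replicate block called 32 genes and 0 members, with a member median of −0.19 and Gimap6 at −0.30 (edgeR adjusted p 0.354).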
